A study of Mus musculus with 6 samples.

Results

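Liver sinusoidal endothelial cells were followed through 10 marker genes, Stab1, Stab2, Clec4g, Lyve1, Pecam1, Kdr, Cdh5, Egfl7, Oit3 and Fcgr2b, in whole-liver RNA from mice fed a regular diet (RD) or a high cholesterol diet (HCD). The genes were chosen by name, with earlier results of these data known, and all 10 were among the 20673 genes of the deposited tables. All 10 were also among the 13105 genes that passed the filter on low counts. edgeR called 0 of the markers different between the diets, where it called 3.27% of all genes, and DESeq2 called 1, Cdh5, where it called 6.97%. Of the 10, 8 had a higher mean level in the HCD livers and 2, Stab1 and Lyve1, a lower one. For 2 markers, Cdh5 and Egfl7, all HCD livers lay above all RD livers, as for 14.0% of all genes.

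Sinusoidal endothelial cells line the liver's capillaries. They carry open pores without a basement membrane, so that plasma reaches the hepatocytes directly, and they clear waste macromolecules from the blood through endocytic receptors. Some of the markers, such as Stab2, Clec4g and Oit3, set them apart from most other endothelium, whereas Pecam1, Cdh5, Kdr and Egfl7 are shared with blood vessels of other organs. Their identity depends on growth factors made by hepatocytes, mainly VEGF, and they in turn secrete Wnt ligands and R-spondin that shape the hepatocytes around the central vein.

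Each of 6 libraries came from the liver of 1 C57BL/6J mouse, with 3 young adult mice on each diet. HCD held added cholesterol, cocoa butter and sodium cholate and was given for 3 days, and the RD mice ate a Teklad chow and are labelled as having no treatment. The livers were taken at the end of the diet period, and both sexes were used in the study. The livers are named here by diet and replicate number, as RD 1 or HCD 1, and the numbers do not pair livers. In bulk liver RNA, fewer cells of a type and less RNA per cell cannot be told apart.

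Library totals ran from 13771630 to 23129576 counts among the RD livers, and from 13935491 to 18545549 among the HCD livers. RD 3 and HCD 1 were the deepest libraries of their diets. HCD 1 differed from the rest in another way, with 5032 counts of Xist, which is transcribed from the inactive X chromosome of females, and none over 4 Y-linked genes. The other 5 libraries had no Xist counts and 1075 to 2666 counts over these Y-linked genes. HCD 1 was therefore the 1 library with a female pattern, and fold changes of the markers and medians of the gene lists that it moved by more than 1.5 times are given without it as well. The values of other single genes below include it. The library names follow 1 pattern in the RD livers and another in the HCD livers, and a difference in handling that went with them cannot be told apart from the diet.

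Sequences are shown for 3 markers, because Stab1 and Stab2 are close relatives with fold changes of opposite sign (of the same sign without HCD 1) and Egfl7 was 1 of the markers without overlap. The windows hold 250 bases before a RefSeq transcription start (GRCm38.p6) and are printed along the gene's strand. Capitals mark CGGAAG or AGGAAG, or their reverse complements, the letters of an ETS motif. ETS factors are transcription factors that include the endothelial proteins Erg and Fli1. The Stab1 window lies at chr14:31168642-31168891 on the minus strand and holds 2 matches, the Stab2 window at chr10:87007943-87008192 on the minus strand holds 1, and the Egfl7 window at chr2:26580833-26581082 on the plus strand holds 3. It belongs to the most upstream of the 3 RefSeq starts of Egfl7.
Stab1: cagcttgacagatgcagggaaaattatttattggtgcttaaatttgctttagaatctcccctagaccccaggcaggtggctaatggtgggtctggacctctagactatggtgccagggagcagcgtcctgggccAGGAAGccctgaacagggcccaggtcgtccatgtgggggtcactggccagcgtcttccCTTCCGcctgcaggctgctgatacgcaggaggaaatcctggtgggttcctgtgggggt
Stab2: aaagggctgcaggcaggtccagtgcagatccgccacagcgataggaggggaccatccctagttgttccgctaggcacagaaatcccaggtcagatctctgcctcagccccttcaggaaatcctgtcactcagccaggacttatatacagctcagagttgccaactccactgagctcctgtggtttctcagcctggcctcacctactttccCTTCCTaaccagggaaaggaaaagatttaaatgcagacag
Egfl7: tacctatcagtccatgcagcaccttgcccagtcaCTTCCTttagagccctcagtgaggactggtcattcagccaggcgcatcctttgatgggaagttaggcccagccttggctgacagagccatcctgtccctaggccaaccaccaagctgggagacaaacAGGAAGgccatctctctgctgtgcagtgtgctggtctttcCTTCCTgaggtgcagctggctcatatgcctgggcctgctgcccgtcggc

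The RefSeq table held windows for 6 of the 10 markers, 8 windows in all. The ETS letters were present in 5 of these windows, from 4 markers, against 39.2% of 32851 windows of the same length. A GATA motif, AGATAA or TGATAA on either strand, was present for 1 marker, Egfl7, against 16.6% of all windows. These matches describe the letters only. The Egfl7 gene also contains a microRNA, miR-126a, whose mature 3p arm lies at chr2:26591402-26591423 on the plus strand. It is shown because its hairpin overlaps an annotated exon of Egfl7, with the seed, bases 2 to 8, in capitals.
mmu-miR-126a-3p: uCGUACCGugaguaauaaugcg

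The microRNA itself was not measured in these libraries.

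Levels of single genes are given in FPKM as deposited, fragments scaled to the length of the gene and by a factor for each library. The scaling by length allows a comparison between genes. The library factors implied by the counts are not proportional to the count totals, and their source was not tested. Clec4g had the highest level, with a mean of 19.2 FPKM over the 6 livers, and it ranked above 84.1% to 90% of all genes in the tables in each liver. It was followed by Oit3 with 8.2, Fcgr2b with 7.34 and Cdh5 with 5.99, and each of these steps held in 6 of 6 livers. The remaining markers had mean levels of 5.57 for Egfl7, 4.4 for Kdr, 4.38 for Stab2, 3.91 for Stab1, 3.08 for Pecam1 and 2.46 for Lyve1. Neighbours in this lower part of the order changed places between livers. The step from Cdh5 to Egfl7 held in 4 of 6 livers, that from Egfl7 to Kdr in 5, those from Kdr to Stab2 and from Stab2 to Stab1 in 3, and those from Stab1 to Pecam1 and from Pecam1 to Lyve1 in 4.

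**Figure D1:**
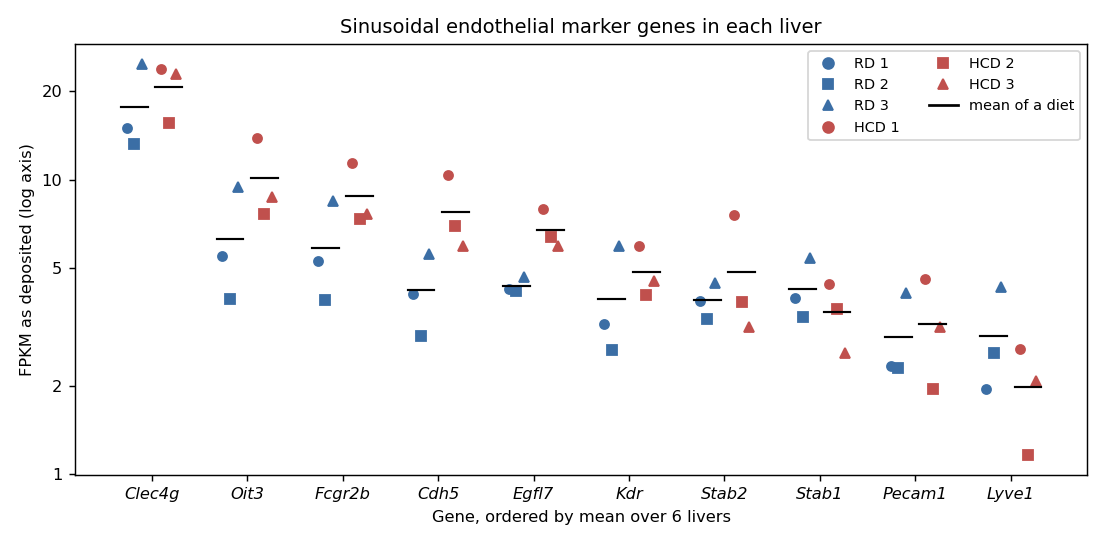
FPKM as deposited (log axis) of the 10 markers in each of the 6 livers, with RD livers in blue, HCD livers in red and a line at the mean of each diet. Clec4g lies above the other markers in each liver, and the points of the diets are apart for Cdh5 and Egfl7.

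The diets were compared with edgeR's quasi-likelihood test on the counts, with Benjamini-Hochberg adjustment across the 13105 genes and a call at an adjusted p under 0.05. This called 0 of the 10 markers, where 3.27% of all genes were called. At an unadjusted p under 0.05 there were 2 markers, Cdh5 and Egfl7, against 20.9% of all genes. DESeq2 called 1 marker, Cdh5, where it called 6.97% of its genes. Log2 fold changes, given as HCD over RD throughout, were above 0 for 8 markers, against 50.7% of all genes, and their median over the markers was 0.29, against 0.0074 over all genes. The diets did not overlap for 2 markers, both higher with HCD, where 27.6% of all genes did not overlap and 14.0% did so with HCD higher. Without HCD 1 the median of the markers was 0.11 and 6 of 10 lay above 0, without RD 2 it was 0.147 with 7 of 10 above 0, and without RD 3 it was 0.57.

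Stab1 and Stab2 encode stabilin-1 and stabilin-2, large scavenger receptors that take up hyaluronan (stabilin-2), modified lipoproteins and other waste. Stab1 (ENSMUSG00000042286, chromosome 14, GRCm38, 31139013 to 31168641) had 3.96, 3.41 and 5.43 FPKM in RD 1 to 3, and 4.44, 3.64 and 2.58 in HCD 1 to 3. The diets overlapped, and HCD 3 was the lowest liver. On the scale of CPM, counts brought to a common library total with TMM factors, Stab1 was 30.0 ± 6.66 with RD and 24.6 ± 6.4 with HCD (SD, n = 3), and its log2 fold change was -0.28 (standard error 0.23, edgeR adjusted p = 0.527). It was -0.46 without HCD 1, -0.091 without RD 3 and -0.099 without HCD 3. Stab2 (ENSMUSG00000035459, chromosome 10, 86841198 to 87008025) had 3.86, 3.37 and 4.45 FPKM with RD and 7.58, 3.85 and 3.15 with HCD. HCD 1 stood well above the other 5 livers, which overlapped. Stab2 was 23.3 ± 2.74 CPM with RD and 28.6 ± 13.6 with HCD, and its log2 fold change was 0.30 (standard error 0.30, edgeR adjusted p = 0.604). Without HCD 1 this value was -0.16 and without HCD 3 it was 0.53, so the direction of Stab2 rested on HCD 1.

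Lyve1 encodes a hyaluronan receptor of sinusoidal and lymphatic endothelium. Lyve1 (ENSMUSG00000030787, chromosome 7, 110850607 to 110863239) had 1.94, 2.57 and 4.31 FPKM with RD and 2.66, 1.16 and 2.08 with HCD. RD 3 was the highest liver and HCD 2 the lowest, with 194 and 34 counts, the most and the fewest of this gene. Lyve1 was 5.85 ± 2.33 CPM with RD and 3.85 ± 1.42 with HCD, and its log2 fold change was -0.60 (standard error 0.40, edgeR adjusted p = 0.429). It was the lowest of the 10 markers in level and had the widest 95% interval of the log2 fold change, from -1.51 to 0.31. Leaving out each liver kept Lyve1 below 0, between -0.88 and -0.24, and it lay nearest to 0 without RD 3 (-0.24) and without HCD 2 (-0.34).

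Fcgr2b encodes the inhibitory Fc receptor, which on these cells removes immune complexes from blood and which B cells and macrophages also express. Fcgr2b (ENSMUSG00000026656, chromosome 1, 170958617 to 170976547) had 5.29, 3.89 and 8.47 FPKM with RD and 11.4, 7.34 and 7.64 with HCD. RD 3 lay above HCD 2 and HCD 3, so the diets overlapped through that 1 liver. Fcgr2b was 23.2 ± 8.76 CPM with RD and 34.3 ± 8.37 with HCD, and its log2 fold change was 0.56 (standard error 0.28, edgeR adjusted p = 0.295). It was 0.34 without HCD 1, 0.35 without RD 2 and 0.90 without RD 3. Its transcripts align to those of Fcgr3 and Cplx2 over at least 200 bases at 90% identity or more, so that reads may have been divided between them.

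Clec4g encodes LSECtin, a lectin of the sinusoidal surface, and Oit3 a protein with a zona pellucida domain. Clec4g (ENSMUSG00000074491, chromosome 8, 3707064 to 3720651) had 15.0, 13.2 and 24.8 FPKM with RD and 23.7, 15.6 and 22.9 with HCD. The diets overlapped, with RD 3 the highest liver of all. Clec4g was 29.6 ± 9.77 CPM with RD and 34.3 ± 6.79 with HCD, and its log2 fold change was 0.21 (standard error 0.25, edgeR adjusted p = 0.675). It moved with each liver left out, to 0.052 without RD 2, 0.106 without RD 1, 0.108 without HCD 1, 0.133 without HCD 3, 0.364 without HCD 2 and 0.51 without RD 3. Oit3 (ENSMUSG00000009654, chromosome 10, 59422958 to 59441778) had 5.52, 3.95 and 9.43 FPKM with RD and 13.9, 7.65 and 8.72 with HCD. As with Fcgr2b, RD 3 lay above HCD 2 and HCD 3. Oit3 was 11.9 ± 5.1 CPM with RD and 18.9 ± 5.96 with HCD, and its log2 fold change was 0.66 (standard error 0.33, edgeR adjusted p = 0.294). It was 0.37 without HCD 1, 0.43 without RD 2 and 1.05 without RD 3.

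Cdh5 encodes VE-cadherin, the adhesion protein of endothelial junctions, and Pecam1 encodes CD31, an adhesion protein of endothelium that platelets and leukocytes share. Cdh5 (ENSMUSG00000031871, chromosome 8, 104101625 to 104144511) had 4.08, 2.95 and 5.59 FPKM with RD and 10.4, 6.95 and 5.96 with HCD. The lowest HCD liver lay just above the highest RD liver, with or without HCD 1. Cdh5 was 12 ± 3.54 CPM with RD and 22.0 ± 6.37 with HCD, a fold of 1.82 (95% interval 1.18 to 2.8) and a log2 value of 0.87 (standard error 0.27). Its unadjusted p was 0.012 in edgeR and its adjusted p = 0.126, above the threshold, whereas in DESeq2 the adjusted p was 0.0466. The difference of the means was larger than the SD within either diet, and the call depended on the tool.

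Pecam1 (ENSMUSG00000020717, chromosome 11, 106654217 to 106750628) had 2.33, 2.3 and 4.13 FPKM with RD and 4.59, 1.95 and 3.16 with HCD. The diets overlapped, and the lowest liver was an HCD liver, HCD 2. Pecam1 was 12.4 ± 4.16 CPM with RD and 13.5 ± 5.28 with HCD, and its log2 fold change was 0.12 (standard error 0.33, edgeR adjusted p = 0.862). Its sign changed with the livers used, at -0.21 without HCD 1, -0.011 without RD 1 and -0.007 without RD 2, against 0.373 without HCD 2 and 0.438 without RD 3. The 95% interval with all livers, from -0.63 to 0.88, held differences of either direction.

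Kdr encodes VEGF receptor 2, the main receptor through which VEGF acts on endothelium. Kdr (ENSMUSG00000062960, chromosome 5, 75932827 to 75978458) had 3.24, 2.64 and 5.94 FPKM with RD and 5.95, 4.07 and 4.54 with HCD. RD 3 and HCD 1 were nearly level, and the other 2 HCD livers lay above the other 2 RD livers. Kdr was 24.2 ± 10.3 CPM with RD and 29.5 ± 5.43 with HCD, and its log2 fold change was 0.28 (standard error 0.28, edgeR adjusted p = 0.609). Single livers decided its size, with 0.074 without RD 2, 0.118 without HCD 1, 0.164 without RD 1 and 0.68 without RD 3.

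Egfl7 encodes a secreted matrix protein of endothelium and is the host gene of miR-126a shown above. Egfl7 (ENSMUSG00000026921, chromosome 2, 26580014 to 26593120) had 4.26, 4.19 and 4.68 FPKM with RD and 7.96, 6.38 and 5.94 with HCD. The 3 RD livers were close together, and all 3 HCD livers lay above them. Egfl7 was 10.7 ± 0.422 CPM with RD and 16.3 ± 2.4 with HCD, a fold of 1.52 (95% interval 1.16 to 2.0) and a log2 value of 0.61 (standard error 0.17). The unadjusted p was 0.00704 in edgeR and the adjusted p = 0.0981, and DESeq2 gave an adjusted p of 0.133. Leaving out each liver kept Egfl7 between 0.48 and 0.69, the narrowest range among the markers.

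Egfl7 shares 12.8% of its exon bases with other annotated genes, the largest share of the 10. The largest overlap, 264 bases, is with Gm20532 on the same strand, and Mir126a and Mir126b share 73 and 58 bases. A further 64 bases are shared with Agpat2 on the opposite strand, an abundant enzyme of phospholipid and triglyceride synthesis. Agpat2 had 226 to 251 CPM with RD and 260 to 354 with HCD, and its log2 fold change was 0.40 (standard error 0.16, edgeR adjusted p = 0.196). Whether the counting used strand is not stated in the sources consulted, and the part of reads from these genes in the Egfl7 values was not tested. The shared part was 5.93% for Clec4g and at most 2.68% for Fcgr2b, Stab2 and Stab1, and the other 5 markers shared none.

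**Figure D2:**
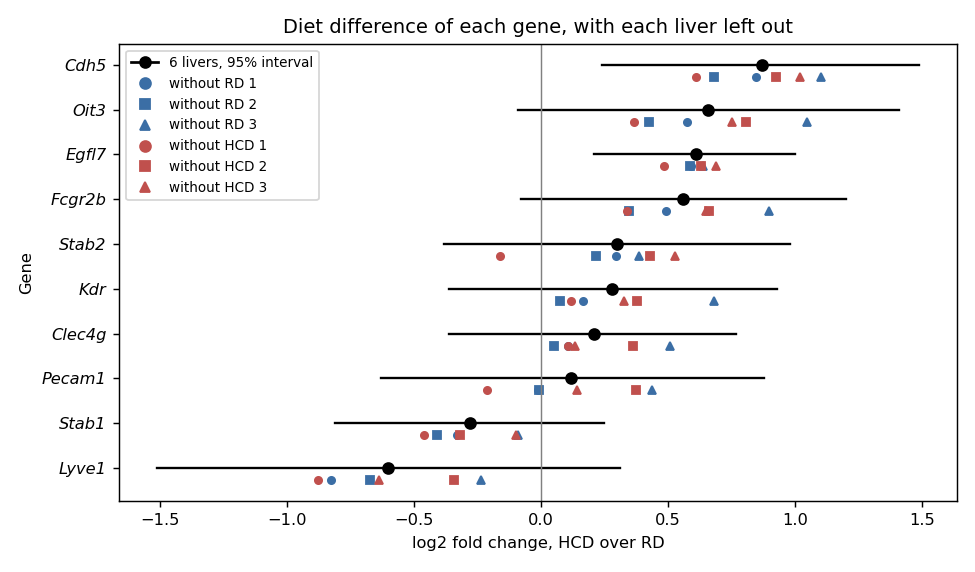
Log2 fold change of HCD over RD for each marker, as a black point with its 95% interval from edgeR over 6 livers, and below it the value with each liver left out (blue, without an RD liver; red, without an HCD liver). The intervals of Cdh5 and Egfl7 lie above 0, and the values of Stab2 and Pecam1 fall on both sides of 0 when livers are left out.

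The markers shared the highest liver within each diet, and the lowest liver differed between them. RD 3 was the highest RD liver for 10 of 10 markers and HCD 1 the highest HCD liver for 10 of 10. RD 2 was the lowest RD liver for 9 markers, with RD 1 lowest for Lyve1. With HCD, HCD 2 was lowest for 6 markers and HCD 3 for Stab1, Stab2, Cdh5 and Egfl7. Over all livers, HCD 1 was highest on the CPM scale for 6 markers and RD 3 for the other 4, of which Kdr was nearly level in both.

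The summed level of the 10 markers was 49.4, 42.5 and 77.2 FPKM in RD 1 to 3 and 92.7, 58.5 and 66.7 in HCD 1 to 3. RD 3 thus lay above HCD 2 and HCD 3, and the range within RD was wider than the gap between most livers of different diets. In each liver the deviation of log2 CPM (with 0.5 added) from the mean of 6 livers had a median over the markers of -0.31, -0.38 and 0.33 with RD and 0.55, -0.03 and 0.08 with HCD. RD 3 and HCD 1 were the high livers on this scale too. They are also the deepest library of each diet, and HCD 1 is the only library with a female pattern. The part of depth or sex in this order was not tested. The spread differed between markers, with a coefficient of variation of CPM in the RD livers of 3.94% for Egfl7 and 11.7% for Stab2 but 42.4% for Kdr and 42.7% for Oit3.

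**Figure D3:**
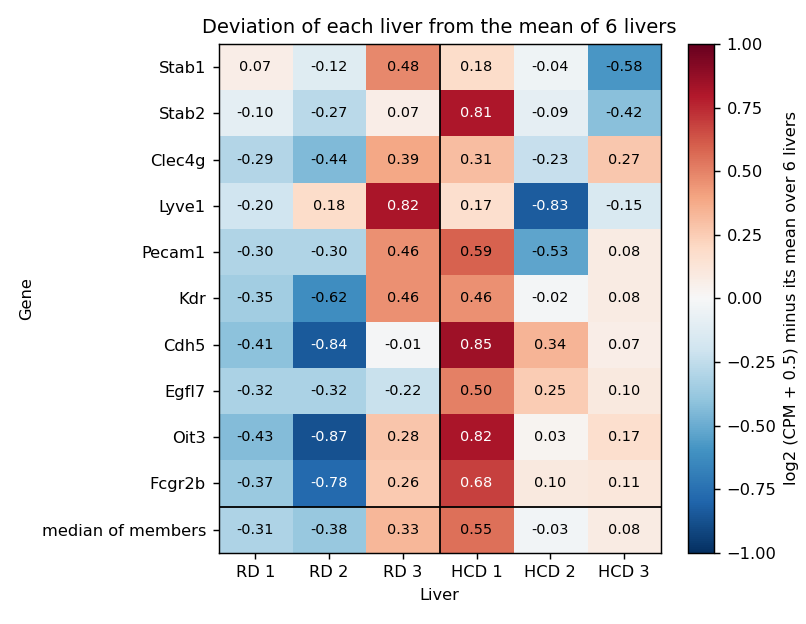
Deviation of log2 (CPM + 0.5) from its mean over 6 livers, for each marker (rows) in each liver (columns), with the median over the markers in the last row. RD 3 and HCD 1 are the high columns of their diets, Stab1 and Stab2 are low in HCD 3, at -0.58 and -0.42, and Lyve1 and Pecam1 in HCD 2, at -0.83 and -0.53.

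Ratios between markers were taken within a liver, where a common shift of all markers drops out. Of the 45 pairs of markers, 22 had ratios that did not overlap between the diets, against 26.4% of all pairs of genes tested. Without HCD 1, 25 pairs did not overlap, against 37.3% of all pairs. The pairs share genes and are not independent, so this is a description. Lyve1 took part in 7 of the 22 pairs, Stab1 and Cdh5 in 6 each, Kdr, Oit3 and Fcgr2b in 5 each, Pecam1 in 4, and Stab2, Clec4g and Egfl7 in 2 each.

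The ratios that follow were chosen after their values were seen and carry no test. The FPKM ratio of Stab1 to Cdh5 was 0.97, 1.16 and 0.97 with RD and 0.43, 0.52 and 0.43 with HCD. Both genes thus stood at nearly the same level in the RD livers, and in the HCD livers the junction gene stood above the scavenger receptor. The ratio of Lyve1 to Cdh5 was 0.48, 0.87 and 0.77 with RD and 0.26, 0.17 and 0.35 with HCD. The ratio of Stab1 to Stab2 was 1.03, 1.01 and 1.22 with RD and 0.59, 0.95 and 0.82 with HCD, and that of Clec4g to Lyve1 was 7.71, 5.15 and 5.74 with RD and 8.92, 13.39 and 11.0 with HCD. In each of these pairs, the level of Stab1 or Lyve1 relative to its partner was lower with HCD. The log2 fold change of Stab2 lay 0.58 above that of Stab1, and 0.30 above it without HCD 1. The ratio of Oit3 to Fcgr2b overlapped between the diets, at 1.04, 1.02 and 1.11 with RD and 1.22, 1.04 and 1.14 with HCD.

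**Figure D4:**
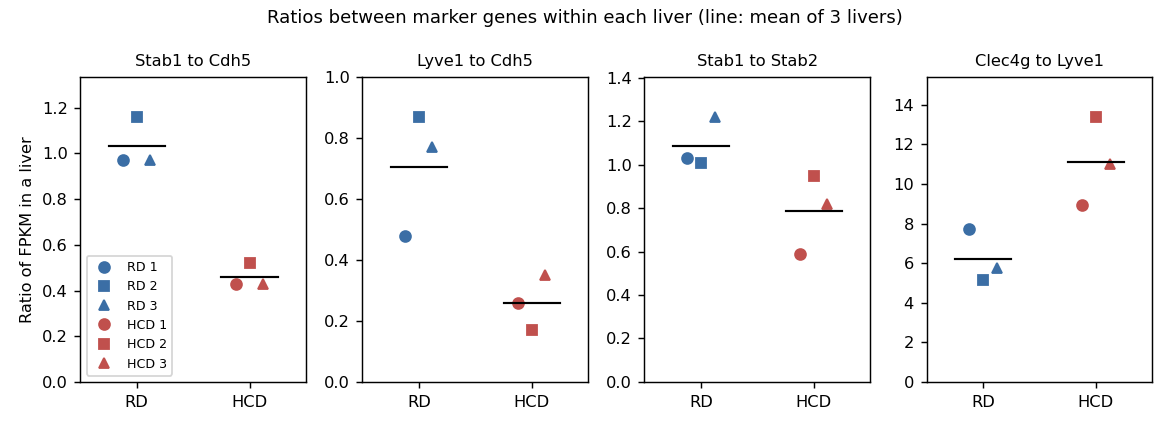
FPKM ratio of 4 pairs of markers within each liver, by diet, with a line at the mean of 3 livers and each vertical axis starting at 0. The RD and HCD points do not overlap in the 4 pairs, which were chosen after their values were seen.

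The genes whose level over the 6 livers was most like that of the markers were sought among 9108 other genes that averaged 5 CPM or more, by Pearson correlation with the mean of the markers' standardised log2 CPM. All points share the libraries and their depth, and the values describe 6 livers only. A search over 9108 genes in 6 livers also yields high correlations between unrelated genes, so the ranking carries no test. The highest correlations were 0.992 for Nfib, a transcription factor of the nuclear factor I family, and 0.989 for Klhl3, an adaptor of a ubiquitin ligase. Psmd9, a chaperone of proteasome assembly, had 0.976. The next was Mrc1 with 0.975, the mannose receptor of sinusoidal endothelium and Kupffer cells, and the only one of the 10 most alike genes in a gene list used here. Mrc1 was 17.7, 12.6 and 32.6 CPM with RD and 40.0, 23.9 and 23.9 with HCD, with RD 3 and HCD 1 the highest livers of their diets. The other 6 genes (Fam13a, Atl3, 2810025M15Rik, Elk4, Cep57 and Ppp1r9b) had 0.962 to 0.971.

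Among 19 further sinusoidal genes, 14 passed the filter and edgeR called none. Of the 14, 12 lay above 0, with a median log2 fold change of 0.32, or 0.09 without HCD 1 and 0.49 without RD 3. Their summed level was 170 to 246 CPM with RD and 221 to 323 with HCD. Unadjusted p was under 0.05 for 4 of the 14, all higher with HCD, against 20.9% of all genes, and DESeq2 called 2, against 6.97%. Maf, a transcription factor of sinusoidal identity, was 14.6, 17.4 and 17.7 CPM with RD and 33.2, 24.3 and 24.2 with HCD, without overlap. Its log2 fold change was 0.72, with an adjusted p of 0.0652 in edgeR and 0.0326 in DESeq2. Dnase1l3, a secreted DNase of these cells, had a log2 fold change of 0.68 (standard error 0.21, edgeR adjusted p = 0.119, DESeq2 adjusted p = 0.0493). The other genes named by their level did not pass either test, with log2 fold changes of -0.22 for the transcription factor Gata4 and 0.39 for the endocytic protein Ehd3.

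Of 28 genes shared by most endothelium, 27 passed the filter, none was called by edgeR or DESeq2, and 23 lay above 0. Their median log2 fold change was 0.40, 0.15 without HCD 1 and 0.65 without RD 3. Unadjusted p was under 0.05 for 3 of them, a smaller share than the 20.9% of all genes. These were Tek, the angiopoietin receptor, with a log2 fold change of 0.73 (standard error 0.24), Esam, a junction protein, with 0.83 (standard error 0.31), and S1pr1, a receptor for sphingosine 1-phosphate, with -0.53 (standard error 0.20). S1pr1 had the highest level of this list and was 108, 88.9 and 71.3 CPM with RD and 72.9, 64.4 and 48.6 with HCD. It differed in direction from most of the list, and its diets overlapped. Eng, a coreceptor for BMP ligands, had a log2 fold change of 0.39 and Cldn5, a tight junction protein, of 0.55, and neither passed the test.

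Genes that tell apart zones and vessel types of the endothelium numbered 19, of which 18 passed the filter and 13 lay above 0, with a median of 0.44, or 0.26 without HCD 1. None was called by edgeR, 5 had an unadjusted p under 0.05 (20.9% of all genes), all higher with HCD, and DESeq2 called 1, Plvap (6.97% of all genes). The diets did not overlap for 7 with HCD higher and 1 with HCD lower, where 14.0% of all genes did not overlap with HCD higher and 27.6% in either direction. Plvap, the protein of endothelial pore diaphragms, was 41.4, 43.0 and 49.1 CPM with RD and 79.8, 56.7 and 72.7 with HCD. All HCD livers thus lay above the RD livers, with a log2 fold change of 0.65 and an adjusted p of 0.0647 in edgeR and 0.0201 in DESeq2. Cd34 and Ly6a, which mark vessels larger than sinusoids, had log2 fold changes of 1.52 and 0.71, with Cd34 at 3.4 CPM or less in each liver. Ltbp4, a matrix protein, had -0.03.

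Wnt2 and Rspo3, the Wnt ligand and R-spondin that central endothelium secretes, had log2 fold changes of 0.97 (standard error 0.41) and 0.88 (standard error 0.34) without overlap of the diets, and edgeR adjusted p of 0.222 and 0.186. Wnt2 was low, at 0.999 to 2.02 CPM with RD and 2.67 to 3.38 with HCD. Of 17 hepatocyte genes known as targets of this signal, all passed the filter, neither edgeR nor DESeq2 called any, and 8 lay above 0, with a median of -0.07, or -0.20 without HCD 1 and -0.25 without RD 3. Unadjusted p was under 0.05 for 2, Lect2 with 0.70 and Rnf43 with -0.48, a smaller share than the 20.9% of all genes. Among them Cyp2e1 had a log2 fold change of 0.17, Cyp1a2 of -0.19 and Rgn of 0.14.

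Of 20 ligands, receptors and targets of endothelial growth factor signalling, 17 passed the filter, none was called by edgeR, and 9 lay above 0, with a median of 0.04, or -0.06 without HCD 1 and 0.37 without RD 3. Unadjusted p was under 0.05 for 5, 3 higher and 2 lower with HCD (20.9% of all genes), and DESeq2 called 2 higher and 1 lower (6.97%). Vegfa, the hepatocyte ligand of Kdr, was 115, 100 and 102 CPM with RD and 83.1, 57.8 and 64.1 with HCD. All HCD livers lay below all RD livers, with a log2 fold change of -0.63 (standard error 0.16) and an adjusted p of 0.0726 in edgeR and 0.0143 in DESeq2. Angptl4, a secreted inhibitor of lipoprotein lipase, was 41.5, 59.7 and 67.4 CPM with RD and 77.8, 96.4 and 101 with HCD. It lay in the opposite direction, with a log2 fold change of 0.71 and an adjusted p of 0.0937 in edgeR and 0.0202 in DESeq2. Vegfb, a related ligand, had 0.26. The ligand Vegfa and its receptor Kdr thus had fold changes of opposite sign, neither of which edgeR called.

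Markers of the other cells of the liver were examined beside the endothelial genes. All 13 Kupffer cell markers lay above 0, with a median log2 fold change of 0.87, or 0.63 without HCD 1, and a summed level of 181 to 288 CPM with RD and 245 to 527 with HCD. edgeR called 1 of them (3.27% of all genes), Cd68, a lysosomal protein of macrophages, with a log2 fold change of 1.24 (edgeR adjusted p = 0.0277). Unadjusted p was under 0.05 for 6 of the 13, against 20.9% of all genes, and DESeq2 called 5, against 6.97%, all of them higher with HCD. The secreted proteins C1qa, C1qb and Cd5l had 0.65, 0.80 and 1.21 and were not called by edgeR, with adjusted p in DESeq2 of 0.0229 for C1qb and 0.00189 for Cd5l. Of 16 stellate cell and fibroblast markers, 14 lay above 0, with a median of 0.42, or 0.20 without HCD 1, and a summed level of 416 to 483 CPM with RD and 458 to 747 with HCD. Neither edgeR nor DESeq2 called any of these, and 3 of the 16 had an unadjusted p under 0.05 (20.9% of all genes). The most abundant were Ecm1 with 0.50, Dcn with 0.54 and Rgs5 with 0.16. The median deviation of both lists was highest in HCD 1, the high liver of the endothelial markers, at 0.75 and 0.54. Whether these cells had a part in the values of the 10 markers was not tested.

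Of 14 leukocyte markers in the tables, 6 passed the filter, with a median of 0.83 and a summed level over the list of 9.52 to 18.2 CPM with RD and 16.7 to 29.5 with HCD. Neither tool called any, and 1 of the 6, Cd52, had an unadjusted p under 0.05 (20.9% of all genes). The B cell genes Cd79a and Ms4a1 and the T cell genes Cd3e, Cd3g and Cd8a did not pass the filter. S100a8, S100a9 and Cd52 had log2 fold changes of 0.09, 0.74 and 1.14, with standard errors of 0.61, 0.47 and 0.36. S100a8 was low, at 0.345 to 0.973 CPM. Of 10 cholangiocyte markers in the tables, 7 passed, with a median of 0.60 (0.37 without RD 3), a summed level of 38.3 to 94.3 CPM with RD and 67.7 to 99.9 with HCD, and 0 had an unadjusted p under 0.05 or a call by either tool. Krt19 had 1.31 (standard error 0.66), Sox9 -0.01 and Spp1 0.13. Krt19 was low in RD 3, at 0.347 CPM, against 2.07 and 2.3 in RD 1 and RD 2. Of 6 lymphatic endothelial genes, 3 passed, with a median of 0.14, or -0.08 without HCD 1 and 0.45 without RD 3, and a summed level of 123 to 206 CPM with RD and 112 to 188 with HCD. These were Prox1, which hepatocytes also express, with -0.55, Flt4 with 0.14 and Reln with 0.49, the last 2 of which are also in the sinusoidal and stellate lists, and 0 had an unadjusted p under 0.05 or a call by either tool. The defining lymphatic genes Pdpn, Ccl21a and Mmrn1 did not pass the filter. The part of these cells in the values of the 10 markers was not tested.

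Hepatocyte markers did not share a direction, with 8 of 15 above 0, a median of 0.01 (0.05 without HCD 1, 0.17 without RD 3) and a summed level of 101000 to 140000 CPM with RD and 111000 to 154000 with HCD. edgeR called 1 (3.27% of all genes), Cyp3a11, a drug-metabolising P450, which rose in the HCD livers with a log2 fold change of 1.06 (edgeR adjusted p = 0.0329), while Alb had 0.26, Apoa1 -0.25 and Ttr 0.59, none of them called by edgeR. DESeq2, which called 6.97% of all genes, called 3 hepatocyte markers higher, Ttr among them (adjusted p = 0.0144), and 1 lower, Fgb, a fibrinogen chain, with -0.69 (adjusted p = 2.4e-04). Red blood cell genes had a median of 2.28 over the 5 of 7 that passed. Hba-a1 and Hbb-bs, which encode the alpha and beta chains of haemoglobin, rose with log2 fold changes of 2.41 and 2.28 (edgeR adjusted p = 0.0217 and 0.0223), whereas Alas2, an enzyme of haem synthesis, had -0.70 and was not called by edgeR. Alas2 was 105 to 154 CPM with RD and 8.24, 97.0 and 119 in HCD 1 to 3. HCD 1, the library with the female pattern, thus stood apart alone. Globin RNA followed another liver order than the endothelial markers, with Hba-a1 at 77.1 CPM in HCD 1, 176 in HCD 2 and 170 in HCD 3. HCD 1, the highest HCD liver for the 10 markers, was thus the lowest for this gene, and the part of blood in the marker values was not tested.

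**Figure D5:**
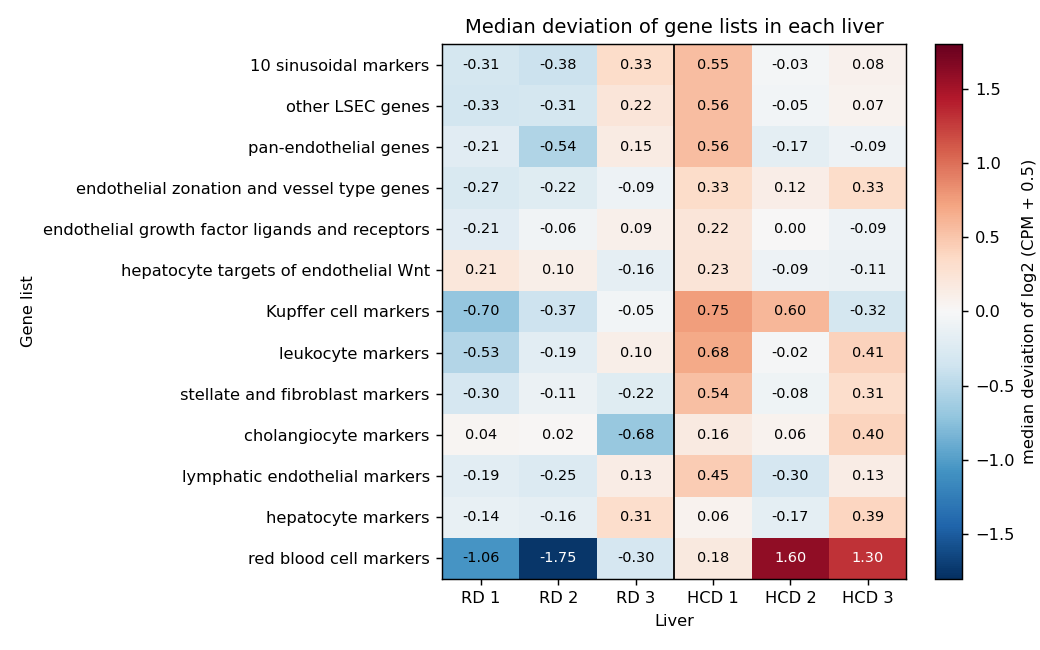
Median deviation of log2 (CPM + 0.5) from its mean over 6 livers, over the genes of each list that passed the filter (rows), in each liver (columns). The 10 sinusoidal markers, the further sinusoidal genes and the shared endothelial genes are highest in HCD 1, at 0.55, 0.56 and 0.56, and the red blood cell markers are highest in HCD 2, at 1.6.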

How the data were processed

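Liver RNA from 6 C57BL/6J mice, 3 per diet, was isolated with the RNeasy Kit and sequenced by Novogene. The authors deposited counts per gene, whole numbers without normalization, and FPKM. The submitters' processing notes name STAR, HTSeq, DESeq2, edgeR and GRCm39, without roles. Gene lengths implied by the FPKM equal GENCODE M21 exon lengths within 0.1% for 95.0% to 95.1% of genes with at least 20 counts, and the files carry no coordinates, so those printed are from GENCODE M21 and RefSeq, both on GRCm38. A comparison that the authors made and deposited, with log2 fold changes and p-values, was not used.

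The fit to the counts used edgeR 4.0.16 under R 4.3.3 (filterByExpr by diet, TMM factors 0.886 to 1.073, glmQLFit and glmQLFTest, no covariates), with Benjamini-Hochberg adjustment over 13105 genes and calls at an adjusted p under 0.05. A gene with 3 counts, taken as the detection limit, has 0.13 to 0.218 CPM of the library totals, without the TMM factors used elsewhere. The limit covers counting error only. The biological coefficient of variation was 27.8%. P-values measure the spread between livers, 1 library per mouse. The fits were tested on simulated data. The alternatives were DESeq2 1.42.0, other scaling factors, other filters, limma-trend (limma 3.58.1) on log2 of FPKM plus 1 or 0.1, removal of a trend with gene length (loess span 0.5, degree 1), a replicate block, and each liver left out among the same genes. Similar transcripts were sought with minimap2 2.31, and tables and figures were made with Python 3.11.15 and matplotlib 3.10.9.

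Named genes are the 10 markers, the called genes and the 3 with the highest mean FPKM of each list, and the 10 genes most alike in profile. Some further genes of the lists with an unadjusted p under 0.05 were named after their values were seen, as were genes that did not pass the filter. The markers and lists were chosen with earlier results of these data known.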

Additional observations from a re-analysis of the deposited data

How the results depend on the processing

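The count of genes called, 428 with all livers, was 992 with DESeq2, 649 without a filter, 251 with the length trend removed and 136 with a replicate block, and 39 to 387 with a liver left out, lowest without RD 1 (39), RD 2 (57), HCD 3 (104) and RD 3 (146). Library sizes alone gave 158 higher and 161 lower, against 255 and 173. DESeq2 called 1 marker, Cdh5 (log2 fold change 0.85), and every other alternative run called 0. The median of the markers ranged from 0.113 (without HCD 1) to 0.575 (without RD 3), and was 0.404 with the length trend removed. Pecam1 ranged from -0.21 to 0.438 with a liver left out, with -0.011 without RD 1 and -0.007 without RD 2, and Stab2 from -0.16 (without HCD 1) to 0.528. The other 8 markers kept their sign in every alternative run. The difference of Stab2 and Stab1, added after the data were seen, was 0.3 to 0.746 with a liver left out, lowest without HCD 1. Livers with the same number did not deviate together (correlations -0.076, 0.088 and -0.041, against -0.107 to 0.133 over all 9 pairs of livers), so the numbers were not treated as pairs. With the replicate block the median of the markers was 0.294 and 0 were called. The cause of these shifts was not tested. The lowest count of a marker was 34 (Lyve1 in HCD 2), above the limit of 3 counts, so depth did not keep any marker from detection.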
